A study of Homo sapiens with 4 samples.

Results

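The proteasome subunit genes were taken as all genes whose symbol begins with PSM, followed by a letter from A to G and a number. This gave 48 of the 36601 genes listed in the count matrices, and 46 of them reached a mean of 10 UMIs per 1000000 UMIs (CPM) over the 4 libraries. BEAS-2B, an immortalized human line derived from bronchial epithelium, was irradiated with gamma rays from Cs-137, and single cells were sequenced after 30 min of culture. There was 1 library each for unirradiated control cells, 10 mGy, 100 mGy and 1 Gy, all from the same line, with no agent other than radiation named in the labels. With 1 library per dose, dose and library cannot be told apart and no test between doses is possible. Each ratio below therefore compares 2 libraries, and each interval is an exact 95% interval that covers counting error only.

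The proteasome degrades proteins that carry ubiquitin chains. Its barrel, the 20S core, is built of rings of alpha subunits (PSMA genes), which form the gate, and of beta subunits (PSMB genes), some of which cut peptide bonds. The 19S cap recognises ubiquitin chains, removes them and feeds the substrate into the barrel, using ATPases (PSMC genes) and non-ATPase subunits (most PSMD genes). Other members either bind the barrel in place of the cap (PSME1 to PSME4), bind it as a regulator (PSMF1), or help to assemble the cap (PSMD5, PSMD9, PSMD10) or the barrel (PSMG1 to PSMG4). Subunits of the 20S and 19S are made in near equal numbers in a complete particle, and their genes are known to share regulation by the transcription factor NFE2L1.

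The libraries held between 211752280 and 285806026 UMIs, from 11111 to 21514 barcodes. The median per barcode was 19771 UMIs in the control and between 12417 and 14277 at the 3 doses. Low-UMI barcodes, those with a UMI count below the library median even after multiplication by 3, were 19.6% of all in the unirradiated library and 41.4%, 27.4% and 25.4% in the order of rising dose. Each library shared between 218 and 317 barcode sequences with the others. Of 6 epithelial markers, which summed to between 1017 and 1156 CPM, the keratins KRT7, KRT8 and KRT18 were present at 219 to 645 CPM. The keratin KRT19 and the adhesion genes EPCAM and CDH1 were at most 2.41, 1.17 and 0.0490 CPM, so these defining epithelial markers were nearly absent. The 3 mesenchymal markers VIM, CDH2 and FN1 summed to 4431 CPM without irradiation, 3288 after 10 mGy, 3135 after 100 mGy and 4005 after 1 Gy. Of these, FN1 had 1546, 623, 640 and 1466 CPM and CDH2 183, 131, 150 and 195 CPM, both lowest at the low doses, whereas VIM had 2702, 2535, 2346 and 2344 CPM, lowest at 100 mGy and 1 Gy. Their part in the results below was not tested. The summed markers of immune, endothelial and red cells were at most 1.78, 0.504 and 0.127 CPM.

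Of the 8507 genes with a mean of at least 10 CPM, the median gene was at 0.810, 0.766 and 1.01 of its control CPM in the 10 mGy, 100 mGy and 1 Gy libraries. A proteasome gene with a level equal to the control in both low-dose libraries was thus above most other genes there. Counted as UMIs per barcode without scaling, the median gene was at 0.562, 0.490 and 0.721 of control. The levels below are CPM over all barcodes, unless stated, and since each 3′ UMI stands for 1 captured transcript and not for a length, levels were compared between libraries and not between genes.

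Promoter sequence was taken from RefSeq on GRCh38.p14, with 250 bases before and 50 after each start site, and was found for 42 of the 48 genes. No entry was found for PSMA7, PSMB1, PSMB6, PSMB7, PSMD4 and PSMG3. The letters TGACNNNGC, the core of the antioxidant response element to which NFE2L1 can bind, were searched on both strands. They were in 15 of 51 promoter windows of these genes (29.4%), in 13.3% of all 35116 promoters and in 14.8% of the promoters of the genes with at least 10 CPM. CCAAT was in 20 of the 51 windows (39.2%) and in 34.6% of all promoters, and can share no more than an end base with TGACNNNGC. The 250 bases before the start are shown for PSMB3, which had the highest ratio of the standard 20S genes in the low-dose libraries and holds the motif, for PSMA5, which was also higher there and holds none, and for PSME4, which had the lowest ratio of all members and holds it. Capitals mark TGACNNNGC, which in PSME4 lies on the opposite strand and is read there as TGACGCTGC.
PSMB3 (chr17:38752491-38752740, plus strand): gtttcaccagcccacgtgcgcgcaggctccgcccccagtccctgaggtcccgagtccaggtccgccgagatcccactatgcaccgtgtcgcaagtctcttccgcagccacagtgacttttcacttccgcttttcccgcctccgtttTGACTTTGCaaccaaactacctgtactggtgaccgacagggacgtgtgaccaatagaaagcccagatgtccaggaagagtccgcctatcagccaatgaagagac
PSMA5 (chr1:109426449-109426698, minus strand): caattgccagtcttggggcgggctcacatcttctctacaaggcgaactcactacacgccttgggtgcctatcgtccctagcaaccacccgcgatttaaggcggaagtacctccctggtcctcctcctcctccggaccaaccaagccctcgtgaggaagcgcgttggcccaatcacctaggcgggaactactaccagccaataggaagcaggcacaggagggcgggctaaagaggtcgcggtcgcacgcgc
PSME4 (chr2:53970994-53971243, minus strand): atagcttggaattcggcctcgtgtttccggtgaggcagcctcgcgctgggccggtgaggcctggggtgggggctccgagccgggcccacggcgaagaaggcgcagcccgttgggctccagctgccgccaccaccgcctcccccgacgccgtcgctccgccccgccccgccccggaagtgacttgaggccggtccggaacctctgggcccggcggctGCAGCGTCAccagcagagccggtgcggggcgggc
The motif began 104 bases before the start of PSMB3 and 34 bases before that of PSME4. Among members with a promoter entry, 17 were over 1.2-fold higher at 10 mGy than in the control. The motif was in 5 of these (PSMB3, PSMB9, PSME1, PSME2 and PSMG2). It was in 6 of the 17 within 1.2-fold and in 4 of the 6 over 1.2-fold lower (PSMD12, PSMD3, PSMD5 and PSME4). These counts are of genes, whereas the shares above are of promoter windows. The matching shares over all genes in each group were not computed, and no difference between groups was tested. Of the members without an entry, PSMA7, PSMB1, PSMB6, PSMB7 and PSMG3 were over 1.2-fold higher at 10 mGy, and PSMD4 was within 1.2-fold. The missing entries thus fell mostly in the higher group.

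Together the members took 0.813% of the UMIs without irradiation, 0.960% after 10 mGy, 0.958% after 100 mGy and 0.792% after 1 Gy. At 10 mGy, 22 of 46 members were over 1.2-fold higher than in the control, against 15.4% of all genes, and 6 were over 1.2-fold lower, against 53%. At 100 mGy, 22 were over 1.2-fold higher, against 14%, and 9 were lower, against 58.9%. At 1 Gy, 1 was over 1.2-fold higher, against 1.28%, and 0 were lower, against 0.846%. The median member was at 1.17 of control at 10 mGy and 1.16 at 100 mGy, and at 0.994 at 1 Gy. Counted as UMIs per barcode, the median member was instead below control in each library, at 0.813, 0.745 and 0.708. That count, here and below, includes the low-UMI barcodes, which were 41.4% of all at 10 mGy against 19.6% in the control. The other barcodes had a median of 21752 UMIs in the control and of 19927, 15108 and 16426 at 10 mGy, 100 mGy and 1 Gy. Scaled by size factors, the median over genes of the ratio to their geometric mean over the libraries, 33 members were over 1.2-fold higher at 10 mGy, against 30.6% of all genes, and 1 lower, against 27.3%. At 100 mGy it was 36 higher, against 31.8%, and 2 lower, against 29%. Past 1.5-fold on the CPM scale, 9 members were higher at 10 mGy, against 4.94%, and 10 at 100 mGy, against 5.04%, while PSME4 was the 1 member lower at 10 mGy, against 25.8%, and PSMD5 and PSME4 were the 2 lower at 100 mGy, against 33.9%. At 1 Gy 0 members passed 1.5-fold in either direction, against 0.0118% higher and 0.0235% lower.

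In the low-dose libraries, 10 mGy and 100 mGy, the members differed by class. On CPM, classes of the core were higher and those of the cap close to control or lower, as the plot of all members shows. The classes also differed in coding length, which is set out below.

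**Figure D1:**
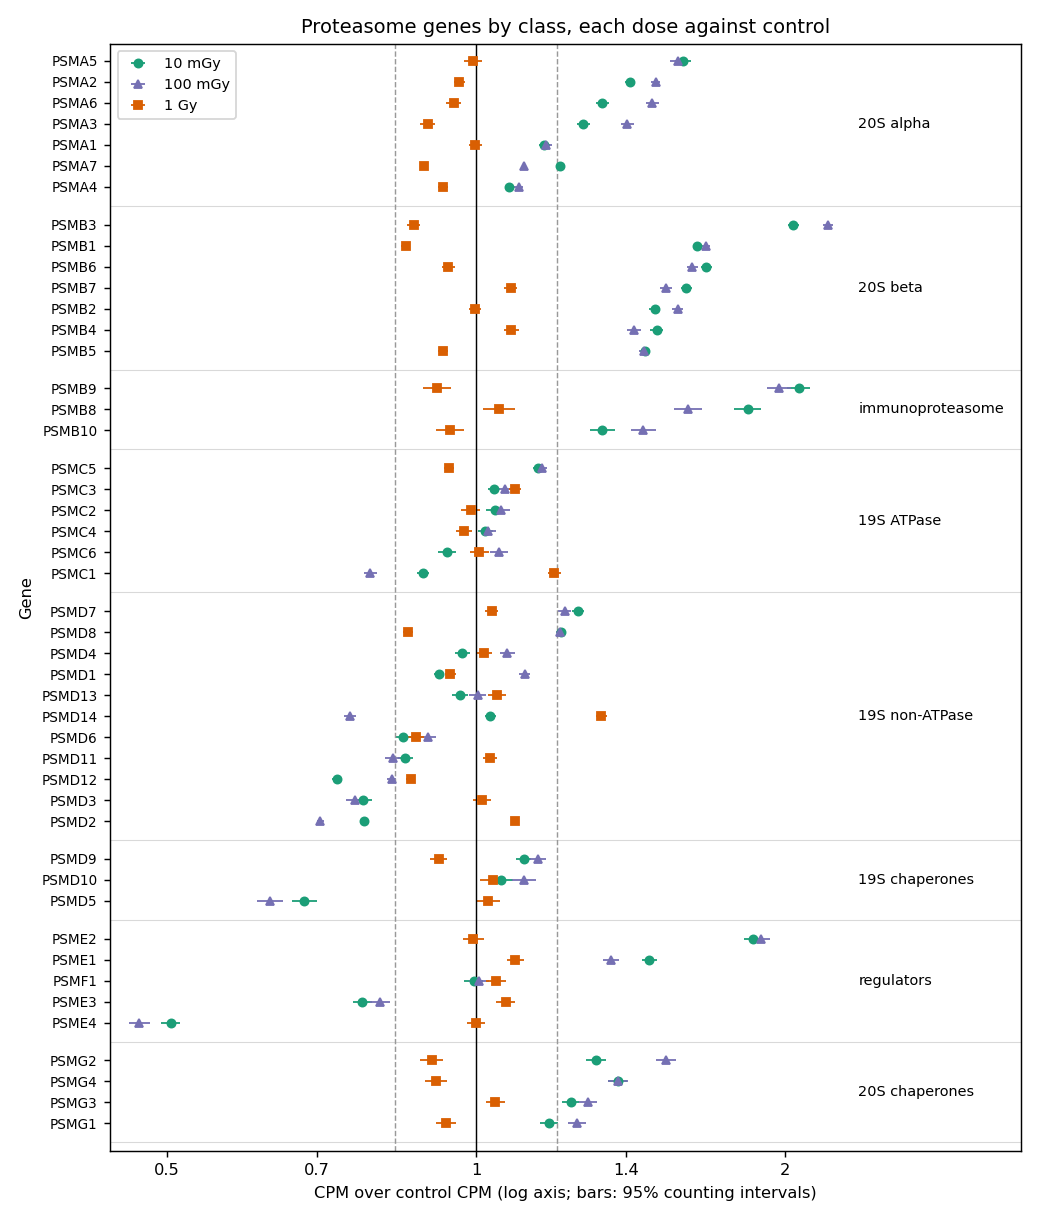
Ratio of CPM to control (log axis) for the 46 members by class, with 1 library per dose. Circles are 10 mGy, triangles 100 mGy and squares 1 Gy, bars are 95% counting intervals, and dashed lines mark 1.2-fold. The 7 beta subunits lie at 1.43 or above in both low-dose libraries, whereas most 1 Gy points lie near 1.

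The alpha subunits, which form the outer rings and the gate, had a median of 1.27 of control at 10 mGy and 1.404 at 100 mGy, with 5 and 4 of 7 over 1.2-fold higher, against 15.4% and 14% of all genes, and 0 lower, against 53% and 58.9%. On UMIs per barcode their medians were instead below control, with log2 ratios of -0.18 and -0.15. PSMA5 had the highest ratio, with 88.1 CPM without irradiation, 140 after 10 mGy, 139 after 100 mGy and 87.5 after 1 Gy. This was 1.59 (1.56 to 1.62) and 1.58 (1.55 to 1.604) of control at the low doses. PSMA4 had the lowest, with 308, 332, 340 and 286 CPM in the same order. Its ratios of 1.08 and 1.101 stayed inside 1.2-fold. PSMA7, which made 51.7% of the alpha UMIs in the control, had 1195, 1442, 1331 and 1062 CPM. It was over 1.2-fold higher at 10 mGy only, at 1.21. The other members PSMA1, PSMA2, PSMA3 and PSMA6 lay between 1.17 and 1.497 of control at both low doses.

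The beta subunits of the standard core, which hold the peptide-cutting sites, were all over 1.2-fold higher at both low doses (7 of 7), against 15.4% and 14% of all genes. Their median was 1.60 of control at 10 mGy and 1.57 at 100 mGy, and 0.940 at 1 Gy. On UMIs per barcode these medians were smaller and still at or above control, with log2 ratios of 0.15 and 0.01. PSMB3, a structural beta subunit, had 182 CPM without irradiation, 371 after 10 mGy, 400.6 after 100 mGy and 158 after 1 Gy. Its ratios of 2.04 and 2.20 were the highest of the class, and the 2 low-dose libraries lay far above the other 2. PSMB1, another structural subunit, had 362, 595, 607 and 309 CPM, and its 0.854 (0.845 to 0.863) of control at 1 Gy was the lowest of all members. The 3 subunits that carry the active sites followed the class. PSMB5, with the chymotrypsin-like activity, had 261, 382, 381 and 243 CPM and the lowest mean ratio of the class. PSMB6, with the caspase-like activity, had 192, 322, 312 and 180 CPM. PSMB7, with the trypsin-like activity, had 159, 254, 243 and 171 CPM. For each of the 3, both low-dose libraries were above control and 1 Gy on CPM. On UMIs per barcode PSMB4, PSMB5 and PSMB7 were below control at 100 mGy, with log2 ratios of -0.13, -0.10 and -0.028. PSMB2 and PSMB4 were at 1.49 and 1.501 of control at 10 mGy and at 1.57 and 1.43 at 100 mGy.

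The immunoproteasome subunits PSMB8, PSMB9 and PSMB10 replace PSMB5, PSMB6 and PSMB7 in cells that receive interferon signals. They were of low abundance and all over 1.2-fold higher at both low doses (3 of 3), against 15.4% and 14% of all genes. PSMB9 had 37.0 CPM without irradiation, 76.4 after 10 mGy, 73.1 after 100 mGy and 33.9 after 1 Gy, which is 2.06 (2.01 to 2.12) and 1.97 (1.92 to 2.03) of control. PSMB8 had 29.03, 53.4, 46.7 and 30.6 CPM, and PSMB10 had 36.3, 48.2, 52.8 and 34.2 CPM. On UMIs per barcode PSMB10 was instead below control at the low doses, with log2 ratios of -0.12 and -0.10. Relative to the subunit each replaces, the order of the libraries differed. PSMB9 over PSMB6 was 0.193 without irradiation, 0.237 after 10 mGy, 0.234 after 100 mGy and 0.188 after 1 Gy. PSMB8 over PSMB5 was 0.111, 0.140, 0.123 and 0.126, with 10 mGy highest. PSMB10 over PSMB7 was 0.229, 0.189, 0.217 and 0.1996, with the control highest. The tissue-restricted subunits fell below the level used here. PSMA8 had 0 UMIs in every library, for which a limit of 3 counts, used in place of an interval, gives at most 0.0142 CPM, and PSMB11 had at most 0.0245 CPM.

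The ATPases of the cap, the unfolding motor, were near control, with a median of 1.03 at 10 mGy and 1.06 at 100 mGy. At the low doses 0 of 6 were over 1.2-fold higher, against 15.4% and 14% of all genes. Lower were 0 and 1, against 53% and 58.9%. Scaled to the median gene, the class median was above control, with log2 ratios of 0.35 and 0.46. PSMC5 had the highest ratios, with 278 CPM without irradiation, 319 after 10 mGy, 322 after 100 mGy and 261 after 1 Gy. PSMC1 had 171, 152, 135 and 204 CPM. It was the 1 ATPase over 1.2-fold lower, at 0.789 (0.777 to 0.801) of control at 100 mGy, and at 1.19 (1.18 to 1.21) at 1 Gy it was the second highest member. At 100 mGy it was close to a typical gene, with a log2 ratio of 0.042 under size factors and 0.16 against genes of like exonic length. PSMC2, PSMC3, PSMC4 and PSMC6 lay between 0.937 and 1.07 of control at the low doses.

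The 11 non-ATPase subunits, which include ubiquitin receptors and scaffold proteins, lay on both sides of control. Their median was 0.920 of control at 10 mGy and 0.898 at 100 mGy, with 2 members over 1.2-fold higher at both, against 15.4% and 14% of all genes, and 3 and 5 lower, against 53% and 58.9%. Scaled to the median gene, that median was above control instead, with log2 ratios of 0.18 and 0.23. PSMD7, a scaffold that pairs with PSMD14, had 157 CPM without irradiation, 197 after 10 mGy, 191 after 100 mGy and 162 after 1 Gy. PSMD8 had 304, 368, 367 and 261 CPM. Both were over 1.2-fold higher than control at the low doses on CPM, whereas on UMIs per barcode their log2 ratios were -0.20 and -0.36 for PSMD7 and -0.25 and -0.37 for PSMD8. PSMD2, one of the largest subunits and a docking site for ubiquitin-like domains, had 680.5, 529, 480 and 743 CPM, or 0.778 and 0.705 of control. PSMD12 had 356, 260, 295 and 307 CPM. PSMD3, the other subunit lower at both low doses, was at 0.776 and 0.762. PSMD11 was over 1.2-fold lower at 100 mGy only, at 0.830. Under size factors PSMD11 and PSMD12 were above control at 100 mGy, with log2 ratios of 0.12 and 0.11. PSMD1, PSMD4, PSMD6 and PSMD13 lay between 0.849 and 1.115 of control.

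PSMD14 is the deubiquitinase that removes the ubiquitin chain before the substrate is unfolded. It had 204 CPM without irradiation, 211 after 10 mGy, 154 after 100 mGy and 270 after 1 Gy. PSMC1, PSMD2, PSMD3, PSMD11 and the cap assembly chaperone PSMD5 were also lowest at 100 mGy and highest at 1 Gy, but were below control at 10 mGy. PSMD14 was at 0.753 (0.743 to 0.764) of control at 100 mGy and at 1.32 (1.31 to 1.34) at 1 Gy. At 1 Gy it was the only member past 1.2-fold and the tenth highest of the 8507 genes. The level at 100 mGy was close to that of a typical gene there, at 0.983 of the median gene, and set against genes of like exonic length its log2 ratio was 0.15. Without the low-UMI barcodes it was again the only member past 1.2-fold at 1 Gy. Over the UMIs of the other non-ATPase subunits in the same library, PSMD14 was 0.0895 without irradiation, 0.103 after 10 mGy, 0.0733 after 100 mGy and 0.121 after 1 Gy. Relative to that sum, PSMD14 was thus lowest at 100 mGy and highest at 1 Gy. On UMIs per barcode it was not higher at 1 Gy, at a log2 ratio of -0.08.

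Ratios of classes within a library need no scaling between libraries, but the classes differ in coding length. Its median was 756 bases for the alpha and 723 for the beta class, 1276.5 for the ATPases and 1266 for the non-ATPase subunits. The part of length in these ratios was not tested. The standard 20S subunits had 1.11 (1.109 to 1.116) UMIs for each UMI of the standard 19S subunits without irradiation, 1.64 (1.63 to 1.64) after 10 mGy, 1.64 (1.63 to 1.64) after 100 mGy and 1.02 (1.01 to 1.02) after 1 Gy. Beta over alpha UMIs were 0.633, 0.834, 0.856 and 0.649. ATPase over non-ATPase UMIs were 0.365, 0.414, 0.418 and 0.374. In each of the 3, the control and 1 Gy were close to each other and the low-dose libraries lay above both. Without low-UMI barcodes the first ratio was 1.11, 1.61, 1.63 and 1.00, and within low-UMI barcodes alone it was 1.23, 2.04, 2.001 and 1.35.

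**Figure D2:**
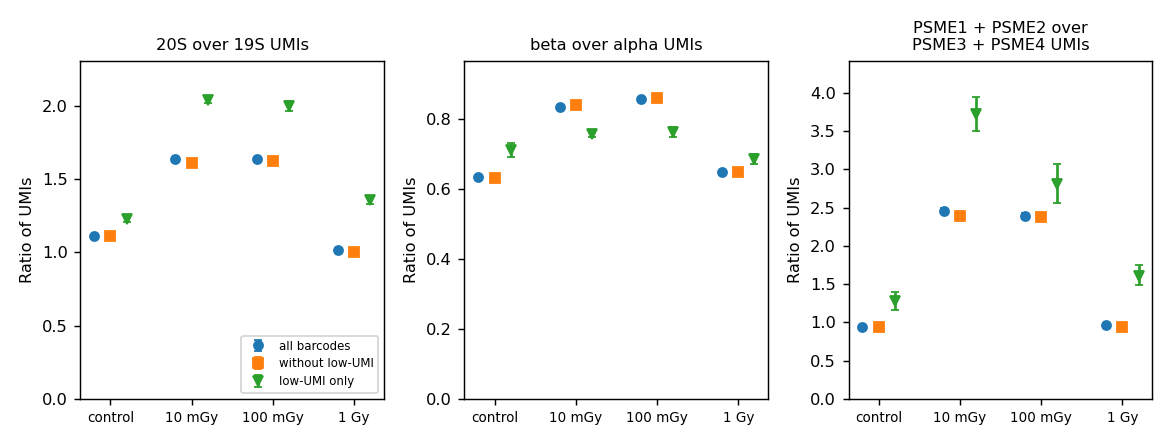
Ratio of summed UMIs of 2 groups of genes within each library, with 1 library per dose. Circles are all barcodes, squares the barcodes that are not low-UMI and triangles the low-UMI barcodes alone, with 95% counting intervals. In all 3 panels the 10 mGy and 100 mGy points lie above the control and 1 Gy points of the same barcodes, and the low-UMI points lie higher in the left and right panels.

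Of the cap assembly chaperones, PSMD5 was lower at both low doses, at 49.0 CPM without irradiation, 33.3 after 10 mGy, 30.8 after 100 mGy and 50.3 after 1 Gy, or 0.680 and 0.630 of control. The median gene was at 0.810 and 0.766. Against genes of like coding length, 0 of the 3 cap chaperones were over 1.2-fold lower at either low dose, against 21.7% and 24.4% of all genes. On exonic length 1 was lower at each, against 21.9% and 24%. PSMD9 had 101, 113, 116 and 93.1 CPM and stayed within 1.2-fold. PSMD10 was at 1.06 and 1.11 of control at the low doses. The barrel assembly chaperones PSMG1 to PSMG4 had a median of 1.27 at 10 mGy and 1.33 at 100 mGy. PSMG2 had the highest ratio at 100 mGy, with 57.2, 74.9, 87.6 and 51.8 CPM. PSMG1 had the lowest, with 75.2, 88.7, 94.3 and 70.3 CPM. PSMG3 was at 1.24 and 1.29 of control and PSMG4, the highest at 10 mGy, at 1.37 and 1.38. On UMIs per barcode the class median was instead below control, with log2 ratios of -0.18 and -0.23.

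On CPM, PSME1 and PSME2 were higher and PSME3 and PSME4 lower at the low doses. PSME1 and PSME2 together form a cap that is known to be induced by interferon. PSME2 had 62.9 CPM without irradiation, 117 after 10 mGy, 119 after 100 mGy and 62.6 after 1 Gy, or 1.86 (1.83 to 1.90) and 1.90 (1.86 to 1.94) of control. PSME1 had 95.5, 141, 129 and 104 CPM, and its 1.09 of control at 1 Gy was the third highest of the members. PSME1 was below control at 100 mGy on UMIs per barcode, at a log2 ratio of -0.21. PSME3, a nuclear activator, had 74.4, 57.7, 60.0 and 79.6 CPM. At 100 mGy its log2 ratio turned to 0.072 under size factors and to 0.055 against genes of like exonic length. PSME4, a large single-chain activator found in the nucleus, had 94.0, 47.4, 44.1 and 94.0 CPM. Its 0.504 (0.493 to 0.515) and 0.469 (0.458 to 0.480) of control were the lowest ratios of all members, while its level at 1 Gy was that of the control. PSMF1, an inhibitor of the core in the test tube, stayed at 0.995 and 1.01. The UMIs of PSME1 and PSME2 over those of PSME3 and PSME4 were 0.940 (0.926 to 0.954) without irradiation, 2.46 (2.42 to 2.49) after 10 mGy, 2.39 (2.35 to 2.42) after 100 mGy and 0.961 (0.947 to 0.975) after 1 Gy. Without low-UMI barcodes this ratio was 0.933, 2.39, 2.38 and 0.944, and within them alone 1.27, 3.72, 2.80 and 1.61. Coding lengths are 750 and 762 bases for PSME1 and PSME2, against 801 and 5529 for PSME3 and PSME4. The part of length in this ratio was not tested.

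**Figure D3:**
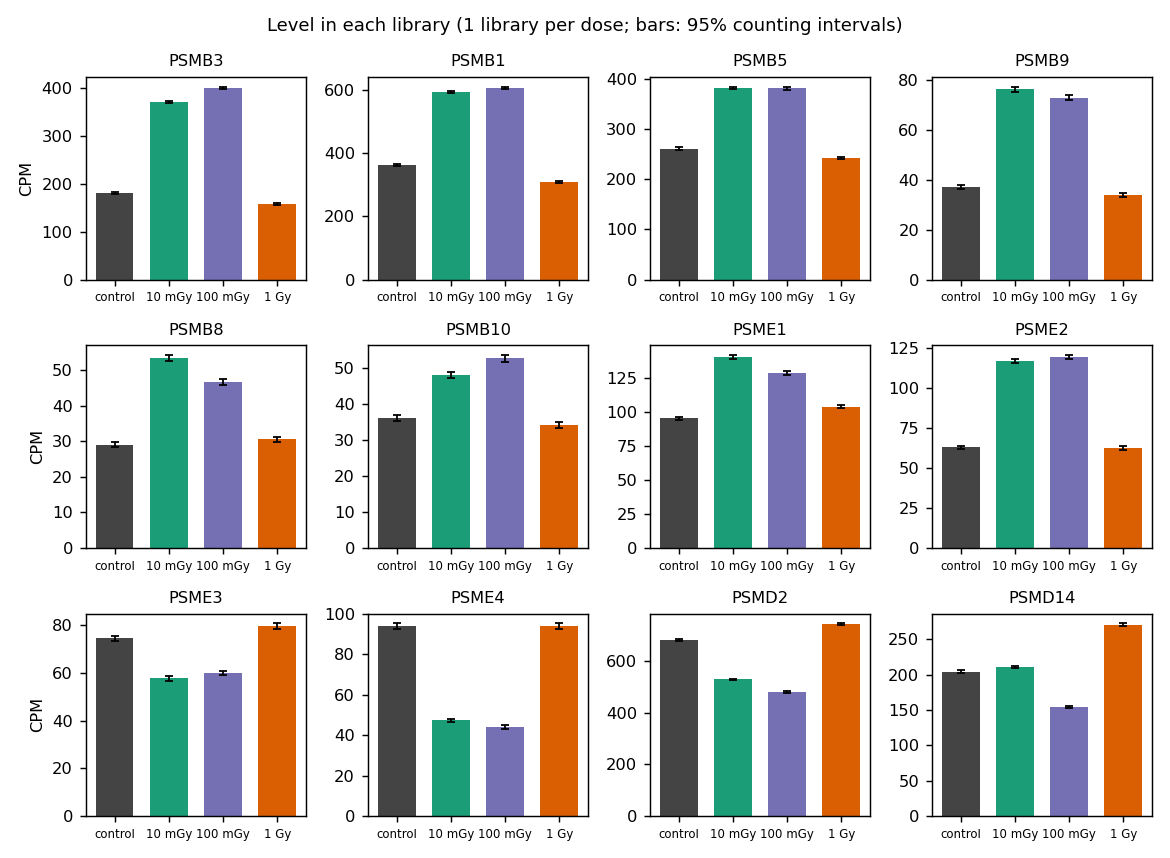
CPM (vertical axis, from 0, scaled for each gene) of 12 members in each library, with 1 library per dose and black bars for 95% counting intervals. PSMB3, PSMB9 and PSME2 are higher in both low-dose libraries than in the control and 1 Gy, PSME4 is lower in both, and PSMD14 is highest at 1 Gy.

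At 1 Gy the members were close to control. The 3 highest were PSMD14, PSMC1 and PSME1, and the 3 lowest were PSMB1, PSMD8 at 0.858 and PSMD12 at 0.864. Between the low doses, 1 member was over 1.2-fold higher at 100 mGy than at 10 mGy, PSMD1 at 1.21 (1.199 to 1.23), against 1.35% of all genes. PSMD14 was the 1 member lower, at 0.730 (0.720 to 0.739), against 12.7%. Of the 46 members, 30 were above both the control and 1 Gy in each low-dose library, against 20.7% of all genes, and 8 were below both, against 67.6%.

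The coding length of a member went with its ratio at the low doses. Across members, Spearman's rho of log2 ratio on coding length was -0.75 after 10 mGy and -0.73 after 100 mGy (n = 46 genes, which share the same 2 libraries), and 0.27 at 1 Gy. Over the other 8275 genes it was -0.62, -0.63 and 0.04. The beta subunits are encoded by 603 to 831 bases and the alpha subunits by 702 to 807, whereas PSMD1, PSMD2 and PSME4 are encoded by 2859, 2724 and 5529. Despite its length PSMD1 was not low, at 0.920 of control at 10 mGy and 1.115 at 100 mGy.

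**Figure D4:**
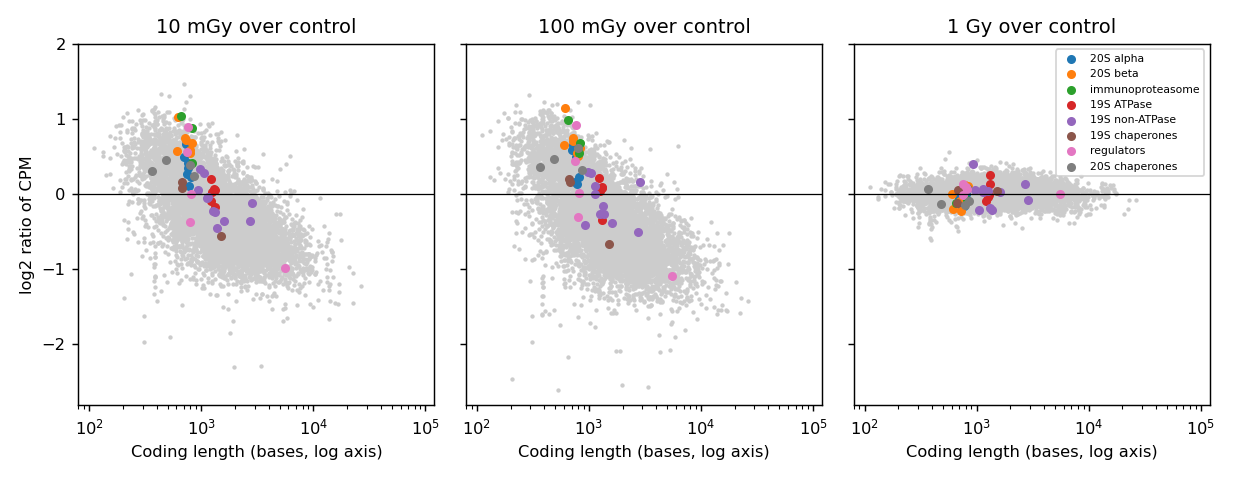
Log2 ratio of CPM to control against coding length (bases, log axis) in 3 panels, one for each dose. Grey points are all genes with at least 10 CPM and coloured points the 46 members by class. Short genes lie above long genes at 10 mGy and 100 mGy, and no such slope is seen at 1 Gy.

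To set members beside genes of like length, the running median of the log2 ratio over genes of similar coding length was subtracted, a choice made after the lengths were seen. At 10 mGy, 25 of 46 members were then over 1.2-fold higher, against 22.7% of all genes, and 1 lower, against 21.7%. At 100 mGy it was 29 higher, against 24%, and 1 lower, against 24.4%. The immunoproteasome had a median of 0.90 (log2) at 10 mGy and 0.78 at 100 mGy with 3 of 3 higher, and the beta class had 0.66 and 0.66 with 7 of 7 higher. The alpha class had 0.30 and 0.48, and the ATPase class 0.30 and 0.40. The non-ATPase class had 0.17 and 0.16, so it lay above genes of its length although below control. The log2 ratio changed sign for PSMD2, to 0.17 and 0.13, for PSMD3, to 0.015 and 0.094, and for PSMG3, to -0.079 and -0.038. For PSMD14 at 100 mGy it was -0.23, for PSME4 it was -0.26 and -0.23, and for PSME3 it was -0.40 and -0.31. PSMD1, one of the longest members, was at 0.41 and 0.79. On exonic length instead, 25 members were higher at 10 mGy, against 24.2%, and 2 lower, against 21.9%, with 30 higher at 100 mGy, against 25.5%, and 2 lower, against 24%. The order of the core classes then turned, with medians (log2) of 0.56 and 0.71 for the alpha class against 0.37 and 0.36 for the beta class, 6 of 7 higher in each, while the immunoproteasome had 0.91 and 0.78. PSME4 was at -0.44 and -0.42 on exonic length. PSME3 did not stay low, at -0.084 and 0.055, and PSMD14 at 100 mGy was at 0.15, opposite in sign to its value on coding length.

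Of 30 other genes of the ubiquitin and proteasome pathway, 7 were over 1.2-fold higher and 15 lower at 10 mGy, against 15.4% and 53% of all genes. At 100 mGy it was 6 and 13, against 14% and 58.9%, and at 1 Gy 0 and 1, against 1.28% and 0.846%. Their median of 0.825 and 0.843 of control at the low doses was close to that of all genes, 0.810 and 0.766. The small cap subunit SEM1 was at 1.73 and 1.99 of control at the low doses and the core maturation factor POMP at 1.58 and 1.58. The ubiquitin receptor ADRM1 was at 0.964 and 1.09. The transcription factor NFE2L1 had 157 CPM without irradiation, 89.2 after 10 mGy, 75.1 after 100 mGy and 182 after 1 Gy, so it was lower in the low-dose libraries. ECPAS, a scaffold that binds the particle, had the lowest ratios, 0.442 and 0.441. TXNL1, a redox protein that binds the cap, was the 1 gene lower at 1 Gy, at 0.820. Of 7 interferon and antigen processing genes, 1 was over 1.2-fold higher and 2 lower at 10 mGy, against 15.4% and 53% of all genes, and 1 and 4 at 100 mGy, against 14% and 58.9%. Their medians were 0.913 and 0.820 of control. B2M, the 1 higher gene, was highest at 1.61 and 1.51, while IRF1, a transcription factor known to drive immunoproteasome genes, was at 1.09 at 10 mGy and at 0.974 at 100 mGy. ERAP1 was lowest at 0.455 and 0.387.

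Other multisubunit complexes were set beside the proteasome. The 8 subunits of the CCT chaperonin, a folding machine of the cytosol, had a median of 0.831 of control at 10 mGy and 0.967 at 100 mGy. Of these, 0 and 1 were over 1.2-fold higher, against 15.4% and 14% of all genes, and 4 and 2 lower, against 53% and 58.9%. The 37 NDUF genes (series A, B, C, S and V), most of which encode subunits of mitochondrial complex I, had medians of 1.56 and 1.66. Of these, 31 and 30 were over 1.2-fold higher and 1 and 1 lower, against the same shares of all genes. On this scale the members of the proteasome lay between these 2 sets, and the difference between sets was not tested. The sets also differ in coding length, with medians of 1626 bases for CCT, 816 for the members and 489 for the NDUF genes. With the running median on coding length subtracted, the medians (log2) at 10 mGy were 0.11, 0.30 and 0.45 in that order, and at 100 mGy they were 0.43, 0.41 and 0.51, so at 100 mGy the members no longer lay between.

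Within each library the low-UMI barcodes had a higher share of member UMIs than the other barcodes. Of 46 members, 23 were over 1.2-fold higher in the low-UMI barcodes of the control, against 11% of all genes, 18 at 10 mGy, against 10.3%, 13 at 100 mGy, against 11.6%, and 28 at 1 Gy, against 12.9%. At most 2 in a library were over 1.2-fold lower, against 15.6%, 21.5%, 14.6% and 26.7% in the same order. Without these barcodes 21 members were over 1.2-fold higher and 6 lower at 10 mGy, against 15.3% and 52.8% of all genes. At 100 mGy it was 22 and 9, against 13.9% and 58.9%, and at 1 Gy 1 and 0, against 1.27% and 0.835%.

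The study examined genes by fold change with a p-value, clustering by dose trend and hub genes of an interaction network. Its cluster raised at lower doses, with levels recovering at 1 Gy, had the proteasome among its listed pathways. The study also screened genes by a dispersion of expression among cells that declines with dose, and ranked them by closeness to a normal distribution. With UMIs scaled to 10000 per barcode, the standard deviation divided by the mean had a median over members of 131% without irradiation, 146% after 10 mGy, 177% after 100 mGy and 156% after 1 Gy. Of the 46 members, 0 were less dispersed at 100 mGy than at 10 mGy, against 1.41% of all genes. The count was 0 without low-UMI barcodes, against 0.329%, and 42 on unscaled UMIs, against 43.9%. It was 46 with at least 700 genes per barcode, where 99.7% of all genes were also less dispersed. It was 26 after thinning to 5000 UMIs, against 30.8%, and 17 after thinning to 1500, against 38.8%, so it depended on which barcodes and scaling were used.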

How the data were processed

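UMI counts per gene and barcode were deposited by the authors for 4 libraries made with a 3′ single-cell kit. The file headers name Cell Ranger 7.0.1, and the submitters' processing notes list Cell Ranger, STAR and GRCh37. The annotation used for counting and the treatment of intronic reads were not given in the sources used. The counts were not normalized, and all deposited barcodes were kept, doublets included.

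UMIs were summed over the barcodes of a library and divided by its total (CPM). Poisson intervals of a level and the interval of a ratio, from the binomial split of 2 counts, are exact at 95%. Genes with a mean of at least 10 CPM were used (8507). A difference was taken at 1.2-fold, the fold threshold of the study, which applied it together with a p-value threshold. Lengths came from GENCODE 29 on GRCh38, matched by gene identifier, and not from the deposited files. The member genes and all lists were chosen with earlier results of these data known. By rule, values in every library were given for the highest and lowest member of each class over both low doses, the catalytic and immunoproteasome subunits, PSMD14, the 3 highest and lowest members at 1 Gy, and members past 1.2-fold against their class. Ratios, size factors and running medians were tested on simulated data. Alternatives covered scaling, barcode filters, thinning, expression floors, a 1.5-fold threshold and transcript length. Computation was in Python 3.11.15 with scipy 1.17.1, numpy 2.4.6, matplotlib 3.10.9 and pandas 2.3.3.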

Additional observations from a re-analysis of the deposited data

How the results depend on the processing

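No paired analysis was possible because each dose had 1 library, so the doses share fewer than 2 replicate numbers and nothing in the labels pairs them. For the same reason no fit leaving out a library was run.

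Where a value changed below, the cause was not tested. By construction, however, unscaled UMIs per barcode keep the differences between libraries in depth and in the share of low-UMI barcodes. A 1.5-fold threshold by construction admits fewer members. A change of sign is given only for members and classes that were past 1.2-fold on CPM. The counts of members over 1.2-fold are given in the order 10 mGy, 100 mGy and 1 Gy. Unscaled UMIs per barcode gave 4, 3 and 0 members higher, against 1.62%, 1.02% and 0% of all genes, and 24, 28 and 44 lower, against 84.6%, 90.1% and 97.2%. The median log2 ratio turned negative for the alpha subunits, -0.18 at 10 mGy and -0.15 at 100 mGy, and for the 20S chaperones, -0.18 and -0.23. Of the members past 1.2-fold on CPM, those that turned negative on that scale at 10 mGy were PSMA2 -0.0295, PSMA3 -0.18, PSMA6 -0.12, PSMA7 -0.26, PSMB10 -0.12, PSMD7 -0.20, PSMD8 -0.25, PSMG2 -0.14, PSMG3 -0.22 and PSMG4 -0.069. At 100 mGy they were PSMA2 -0.062, PSMA3 -0.15, PSMA6 -0.073, PSMB4 -0.13, PSMB5 -0.10, PSMB7 -0.028, PSMB10 -0.10, PSMD7 -0.36, PSMD8 -0.37, PSME1 -0.21, PSMG1 -0.32, PSMG2 -0.029, PSMG3 -0.28 and PSMG4 -0.18, and at 1 Gy PSMD14 was -0.083.

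Median ratio scaling gave 36 members higher at 100 mGy, against 31.8% of all genes, and 1 and 2 lower at the lower doses, against 27.3% and 29%, with PSMC1 0.042, PSMD11 0.12, PSMD12 0.11 and PSME3 0.072 turning positive at 100 mGy. Subtracting the running median on exonic length gave 2 and 2 lower, against 21.9% and 24%, turned PSMA7 negative at 10 mGy, -0.059, and turned PSMC1 0.16, PSMD11 0.32, PSMD12 0.14, PSMD14 0.15 and PSME3 0.055 positive at 100 mGy. The running median on coding length, an alternative chosen after seeing the data, gave 1 and 1 lower, against 21.7% and 24.4%. It turned PSMD2 positive, 0.17 and 0.13, PSMD3 positive, 0.015 and 0.094, and PSMG3 negative, -0.079 and -0.038, with PSMD11 0.069 and PSMD12 0.060 positive at 100 mGy.

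The 1.5-fold threshold left 9, 10 and 0 members higher, against 4.94%, 5.04% and 0.0118%, and 1 and 2 lower at the lower doses, against 25.8% and 33.9%. Without ribosomal protein and mitochondrial genes in the total, 5 members were lower at 100 mGy, against 49.9%. A floor of 100 CPM left 28 members, with 14 higher at 100 mGy, against 30.9% of the 1779 genes kept, and 2 and 5 lower at the lower doses, against 37.1% and 39.0%. The mean of UMIs scaled to 10000 per barcode put 2 members higher at 1 Gy, PSMC1 and PSMD14, against 1.54%, and thinning to 1500 UMIs put 1 lower there, PSMD8, against 2.42%. The count of members less dispersed at 100 mGy than at 10 mGy was 0, against 1.41% of all genes, and became 26 after thinning to 5000 UMIs, against 30.8%, 17 after thinning to 1500, against 38.8%, 42 without scaling, against 43.9%, and 46 among barcodes with at least 700 genes, against 99.7%. Leaving out the low-UMI barcodes moved 11 of 138 member values past their counting intervals and turned none.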
